A study of Mus musculus with 6 samples.

Results

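The interferon-linked ADP-ribosylation genes Parp9, Parp10, Parp11, Parp12, Parp14 and Dtx3l were followed together with Parp1 and Parp2, the PARP genes of DNA repair, in RNA sequencing libraries of mouse regulatory T cells (Treg cells). The 8 genes were chosen by symbol, and for each the transcript row with the most reads over all libraries was kept, out of 23992 gene symbols in the deposited table. All 8 were present and all 8 passed the filter on low counts, each with reads in every library. The 6 libraries form 2 groups of 3. The KO group is taken from titles and genotype tags as Crlf2 fl/fl with a Foxp3-driven YFP-Cre, and the WT group as the Foxp3-driven YFP-Cre alone. Crlf2 encodes the chain of the TSLP receptor that is specific for the cytokine TSLP. By the labels, cells of both groups were CD45.2, sorted as live, CD4+ and YFP+ from spleen and lymph nodes pooled together, so that both groups carry the Cre. By design the deletion is directed to cells in which the Foxp3 locus drives the Cre, and deletion in other cells was not measured here. In every library's description, the strain given is the opposite one to the title. The name of the deposited table mentions lung, and lung epithelial transcripts were present in every library, so the tissue is given only as labelled. No age is given in the sources used here, and whether replicates are separate animals is not stated. The p-values therefore cover the spread among these libraries, which may be technical.

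PARP enzymes transfer ADP-ribose from NAD+ onto proteins. PARP1 and PARP2 build chains of ADP-ribose at DNA breaks, where the chains recruit repair factors. PARP10, PARP11, PARP12 and PARP14 attach single ADP-ribose units, and in many cell types their genes are induced by interferon. PARP9 is held in a complex by DTX3L, a ubiquitin ligase of the Deltex family, and the human complex has been tied to interferon signalling and to the DNA damage response.

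The 8 genes lie on 5 chromosomes of build mm10 (GRCm38, GENCODE annotation), and all are protein coding. A cluster of 3 members lies on chromosome 16: Parp14 (35832874 to 35871544, minus strand), Dtx3l (35926511 to 35939151, minus strand) and Parp9 (35938470 to 35972605, plus strand). Dtx3l and Parp9 face away from each other and overlap at their starts by 682 bases, of which 458 are exonic in both genes. The handling of strand in counting is not given in the sources used here, so reads from those 458 bases cannot be assigned to one gene. They are a small part of the 4872 exonic bases annotated for Parp9 and the 5725 for Dtx3l. Parp12 (39086410 to 39118349, minus strand) and Parp11 (127446840 to 127494261, plus strand) are on chromosome 6, and Parp10 is on chromosome 15 (76231174 to 76243441, minus strand). Parp10 shares 205 exonic bases with Plec, which lies on the same strand. Parp1 is on chromosome 1 (180568924 to 180601254, plus strand) and Parp2 on chromosome 14 (50807841 to 50821301, plus strand).

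Promoter windows of 300 bases (250 before to 50 after a gene start, RefSeq, build GRCm38.p6) were matched by symbol for 5 of the 8 members, with 6 windows in all. Parp9, Parp10 and Parp14 had no window under their own symbol and were not searched. Each was searched on both strands for the core of the interferon-stimulated response element, GAAANNGAAA, through which interferon acts on its target genes. The motif was present in 3.44% of all 32851 promoter windows and in 10 of 16 windows of a list of interferon response genes (62.5%). The windows below are those of Dtx3l and Parp12, which showed a called decrease and the largest fold decrease in KO, of Parp11, the only one of the 5 searched members with a match, and of Parp1 for comparison. They are written 5′ to 3′ on the gene's strand, with motif matches in capitals.
Dtx3l, chr16:35938978-35939277, minus strand: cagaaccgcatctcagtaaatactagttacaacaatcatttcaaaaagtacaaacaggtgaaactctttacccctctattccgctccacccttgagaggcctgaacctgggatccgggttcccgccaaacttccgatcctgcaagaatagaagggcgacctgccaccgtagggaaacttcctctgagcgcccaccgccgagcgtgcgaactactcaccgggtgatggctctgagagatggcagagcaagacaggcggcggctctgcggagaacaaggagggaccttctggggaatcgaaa
Parp12, chr6:39118300-39118599, minus strand: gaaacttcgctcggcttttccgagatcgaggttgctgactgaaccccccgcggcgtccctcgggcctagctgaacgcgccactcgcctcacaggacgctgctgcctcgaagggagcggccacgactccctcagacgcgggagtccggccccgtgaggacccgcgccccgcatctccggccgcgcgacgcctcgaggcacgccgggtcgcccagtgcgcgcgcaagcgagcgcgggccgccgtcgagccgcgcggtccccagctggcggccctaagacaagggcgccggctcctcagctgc
Parp11, upstream start, chr6:127446590-127446889, plus strand: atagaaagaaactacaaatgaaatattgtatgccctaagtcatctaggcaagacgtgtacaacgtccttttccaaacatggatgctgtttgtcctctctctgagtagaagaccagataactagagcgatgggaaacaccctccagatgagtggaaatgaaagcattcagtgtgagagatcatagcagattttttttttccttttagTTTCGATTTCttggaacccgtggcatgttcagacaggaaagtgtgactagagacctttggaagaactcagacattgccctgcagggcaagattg
Parp1, chr1:180568641-180568940, plus strand: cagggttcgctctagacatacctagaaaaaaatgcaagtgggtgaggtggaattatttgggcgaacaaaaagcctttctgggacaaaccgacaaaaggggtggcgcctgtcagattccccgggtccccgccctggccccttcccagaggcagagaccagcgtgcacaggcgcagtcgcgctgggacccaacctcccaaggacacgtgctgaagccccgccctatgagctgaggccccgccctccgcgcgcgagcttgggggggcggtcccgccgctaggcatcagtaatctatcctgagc
In the Parp11 window the motif lies on the opposite strand, reads TTTCGATTTC as printed and begins 44 bases before the start. The counted Parp11 transcript starts 6.88 kb further downstream, near a second window without the motif. The windows of Dtx3l, Parp12, Parp1 and Parp2 do not hold it in these letters. The Dtx3l window also contains the start of 4 of the 7 Parp9 transcripts that GENCODE annotates. The counted Parp9 transcript is not among these 4, as it starts at 35938470, outside the window. The counted Dtx3l transcript starts at 35939151, inside the window but upstream of the start on which it was built. Fewer than 250 bases before that transcript were therefore searched.

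Library totals ranged from 1439740 counts in WT replicate 2 to 18352405 counts in KO replicate 3. Levels are given as CPM, which are counts scaled to library size with TMM factors. Crlf2, which the floxed allele targets, averaged 6.44 ± 2.76 CPM over KO libraries and 115 ± 27.7 CPM over WT libraries (SD, n = 3 each), a direction that goes with the titles and not with the strains given in the descriptions. Markers of Treg cells and of T cells in general were present in every library, the Treg list taking 0.323% to 0.336% of counts in KO and 0.139% to 0.307% in WT, the lowest in WT replicate 3. Foxp3 was at 434 ± 52.1 CPM in KO, against 370 ± 148 CPM in WT. WT replicate 3 also stood apart by erythroid markers, which took 9.88% of its counts, led by Hbb-bs and Hba-a1, against 0.117% to 0.468% in the other 5 libraries. Lung epithelial markers, led by Scgb1a1 and Sftpa1, took 0.243% to 1.97% of counts in KO and 1.71% to 7.6% in WT.

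Parp9 and Dtx3l, the partner genes of 1 protein complex, fell in KO Treg cells, and no other member passed the test. Of the 12720 genes tested with edgeR's quasi-likelihood test, 221 (1.74%) were called at a Benjamini-Hochberg adjusted p under 0.05, 125 (0.983%) lower in KO and 96 (0.755%) higher. Of the 6 interferon-linked members, 2 were called lower and none higher. At an unadjusted p under 0.05, 5 of the 6 were lower and none higher, against 9.13% lower and 6.74% higher of all tested genes (15.9% in either direction). All 6 had negative log2 fold changes (KO over WT), with a median of -1.10, where the median of all tested genes was -0.04. The KO libraries lay below the WT libraries without overlap for 5 of the 6, the exception being Parp11. All tested genes did so in 11.5% of cases, lay above without overlap in 10.4%, and were apart in either direction in 22%. Neither Parp1 nor Parp2 was called, and their libraries overlapped between the groups.

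Parp9 lacks detectable transferase activity in many assays and acts as a reader of ADP-ribose. It had 48.9, 53.1 and 42.1 CPM in KO replicates 1 to 3, against 122, 161 and 96.9 CPM in WT replicates 1 to 3. The KO values lie close together, and the lowest WT library stands well above the highest KO library. Parp9 was 2.62-fold lower in KO, a log2 fold change of -1.39 with SE 0.21 (edgeR adjusted p = 0.0234). Dtx3l, the ubiquitin ligase partner, had 103, 124 and 78.9 CPM in KO and 262, 242 and 172 CPM in WT. Its groups are also separate, with WT replicate 3 the lowest WT library for Dtx3l as for Parp9. The Dtx3l log2 fold change was -1.14 with SE 0.22 (edgeR adjusted p = 0.0449). Both calls were lost when any 1 library other than WT replicate 3 was left out, with adjusted p of 0.0526 to 0.168 for Parp9 and 0.0676 to 0.235 for Dtx3l, while the log2 fold changes stayed between -1.17 and -1.46 for Parp9 and between -0.98 and -1.30 for Dtx3l. The Dtx3l call was also lost without robust estimation, at the same fold change (edgeR adjusted p = 0.0559). The fits that lost both calls without 1 library called 4 to 124 genes in the whole table. A fit with replicate number as a block called 123 genes and kept both Parp9 and Dtx3l. Why the calls were lost was not tested. Without WT replicate 3, which carried the erythroid markers, Parp9 (log2 fold change -1.55, edgeR adjusted p = 0.00343) and Dtx3l (-1.30, edgeR adjusted p = 0.00818) were again called, and Parp14 and Parp10 with them.

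**Figure D1:**
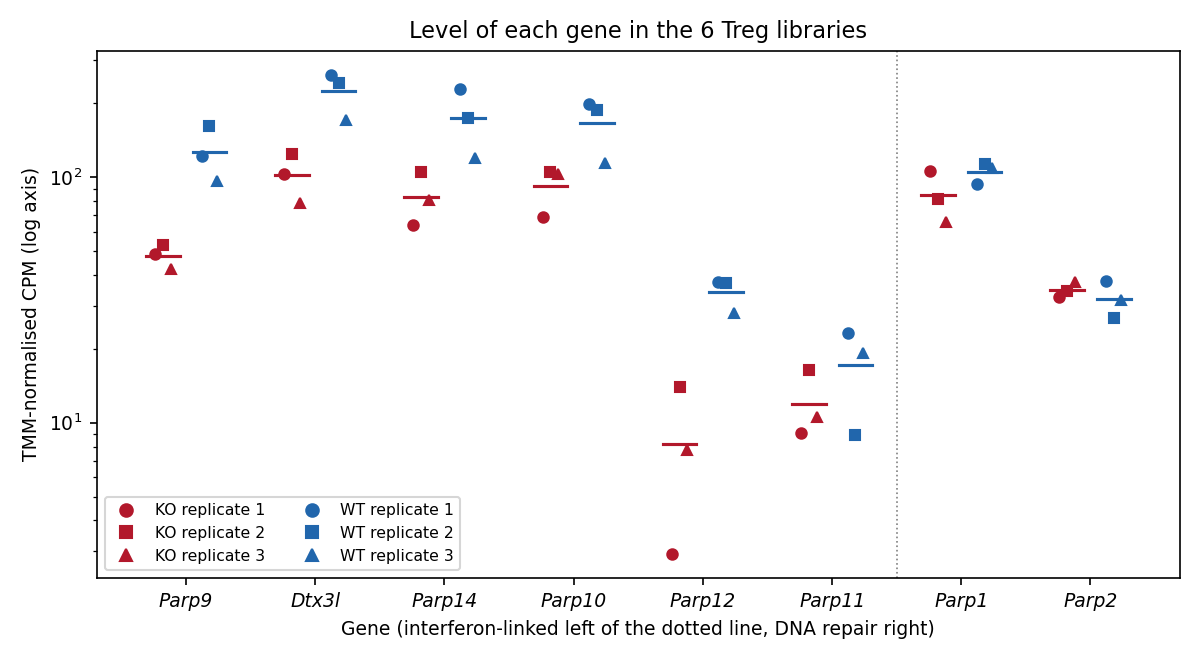
TMM-normalised CPM on a log axis for each of the 8 genes in each library, KO in red left of WT in blue, with a bar at each group mean (n = 3 each). For Parp9, Dtx3l, Parp14, Parp10 and Parp12 the 3 KO libraries lie below the 3 WT libraries, while for Parp11, Parp1 and Parp2 the groups overlap.

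Per kilobase of transcript, the Parp9 to Dtx3l log2 ratio was -0.53 ± 0.16 in KO and -0.30 ± 0.26 in WT (SD, n = 3 each). The difference of -0.23 gave p = 0.3 in a two-sided exact permutation test over the libraries, where 0.1 is the smallest p that 3 against 3 allows. In every library the ratio was below 0 on the log2 scale, so Dtx3l had the higher level per kilobase, though in WT replicate 2 it was nearly even at -0.05.

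Parp14, Parp10 and Parp12, which encode transferases of single ADP-ribose units, had lower values in every KO library than in any WT library without passing the test. Parp14, known in mouse as a coactivator of STAT6, had 63.8, 105 and 80.6 CPM in KO and 230, 174 and 120 CPM in WT. Its nearest libraries, KO replicate 2 and WT replicate 3, are not far apart (log2 fold change -1.07, SE 0.27, edgeR adjusted p = 0.0956). Parp10, whose product modifies proteins with single ADP-ribose units, had 68.6, 105 and 103 CPM in KO and 198, 187 and 114 CPM in WT. The Parp10 groups are separated only by the small gap between WT replicate 3 and KO replicate 2 (log2 fold change -0.85, SE 0.25, edgeR adjusted p = 0.142). The second transcript row of Parp10 holds almost the same reads, 6889 against 6951 in total, and was not used. Parp12, a zinc finger PARP with antiviral activity in cultured cells, had 2.92, 13.9 and 7.73 CPM in KO and 37.6, 36.9 and 28.0 CPM in WT. It showed the largest fold of the members, 4.14-fold lower in KO, and the widest spread among KO libraries, with 30 reads in KO replicate 1 (log2 fold change -2.05, SE 0.50, edgeR adjusted p = 0.0917). Its log2 fold change was -2.65 without KO replicate 2 and -1.65 without KO replicate 1. DESeq2 called these 3 genes as well as Parp9 and Dtx3l, with adjusted p of 0.00147 for Parp12, 0.00283 for Parp14 and 0.0212 for Parp10. DESeq2 called 496 genes (3.9%) lower in the whole table.

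Parp11 was the interferon-linked member whose groups overlapped. Its product is a transferase found at the nuclear envelope, and it had 9.06, 16.3 and 10.5 CPM in KO and 23.1, 8.90 and 19.3 CPM in WT. The lowest value of all belonged to WT replicate 2, the shallowest library, where 13 reads give an exact 95% Poisson interval of 4.74 to 15.2 CPM, covering counting error only. The log2 fold change was -0.55 with a 95% interval of -1.47 to 0.36 (SE 0.40, edgeR adjusted p = 0.558), so a decrease as large as that of Parp9 or Dtx3l lay within the interval for Parp11. Parp11 was also the least abundant member per kilobase in WT, at 4.59 ± 1.98 CPM per kilobase (SD, n = 3).

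Parp1 and Parp2, the enzymes that respond to DNA breaks, overlapped between the groups. Parp1 had 106, 81.7 and 65.6 CPM in KO and 94.1, 113 and 109 CPM in WT. KO replicate 1 lies among the WT libraries, and the other KO libraries lie below them. The Parp1 log2 fold change was -0.32 with a 95% interval of -0.76 to 0.13 (SE 0.19, edgeR adjusted p = 0.483). Parp2 had 32.4, 34.3 and 37.5 CPM in KO and 37.7, 26.7 and 31.7 CPM in WT. The KO libraries of Parp2 fall inside the WT range (log2 fold change 0.10, 95% interval -0.34 to 0.55, SE 0.20, edgeR adjusted p = 0.844). With pan-T cell genes as the scale, Parp2 had a log2 fold change of -0.16 (edgeR adjusted p = 0.803). That scaling shifted the median of all tested genes by -0.27 on the log2 scale, and it left all 6 interferon-linked members negative with Parp9 and Dtx3l called.

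**Figure D2:**
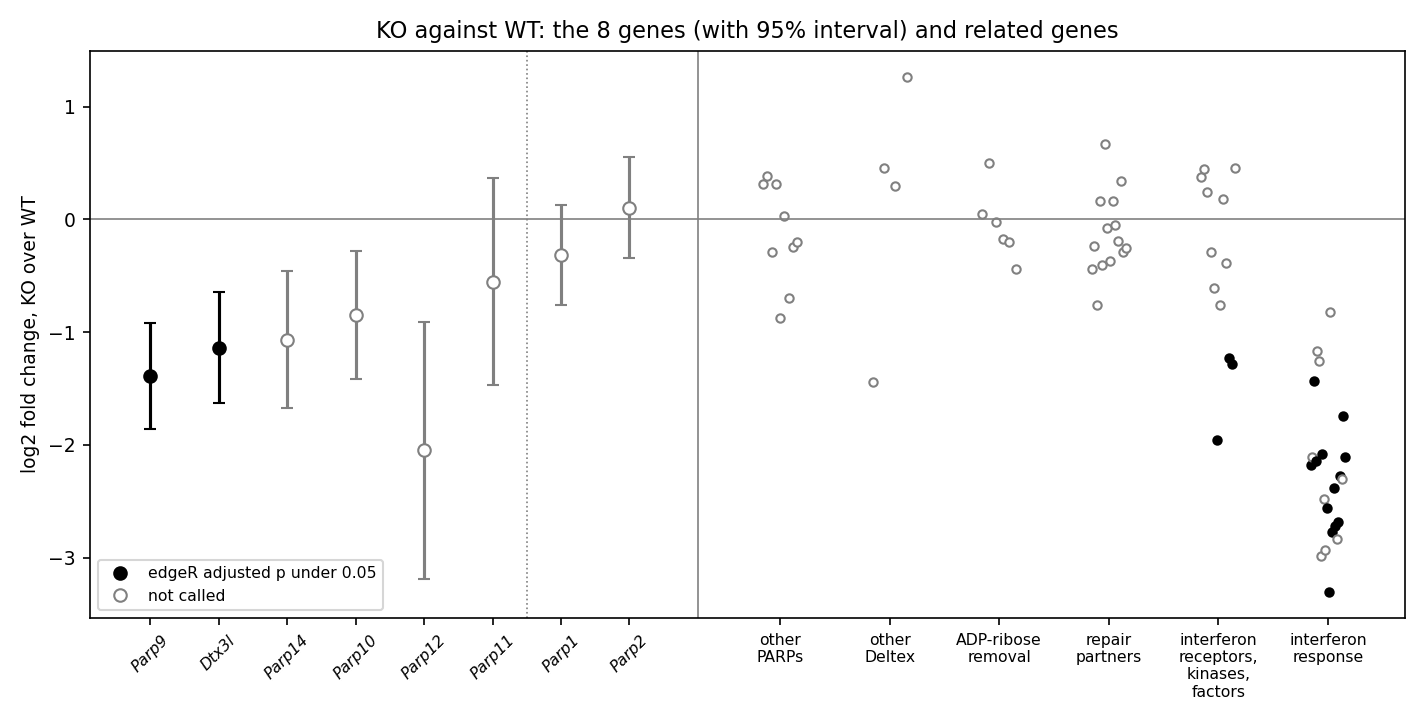
Log2 fold change, KO over WT, of the 8 genes with 95% intervals on the left, and of the tested genes of 6 related lists on the right (1 point per gene). Filled points passed an edgeR adjusted p of 0.05: Parp9 and Dtx3l among the members, 3 interferon signalling factors and 13 interferon response genes.

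Per kilobase of transcript, Parp10 and Dtx3l were the most abundant interferon-linked members in both groups. In KO, the order of mean levels in CPM per kilobase was Parp10 (27.2 ± 6.01), Dtx3l (19.7 ± 4.37), Parp9 (13.5 ± 1.55), Parp14 (11.5 ± 2.88), Parp11 (3.22 ± 1.03) and Parp12 (2.54 ± 1.71). In WT the order was Parp10 (49.1 ± 13.5), Dtx3l (43.5 ± 9.18), Parp9 (35.6 ± 9.14), Parp14 (24.1 ± 7.57), Parp12 (10.6 ± 1.66) and Parp11 (4.59 ± 1.98; SD, n = 3 throughout). Parp10 and Dtx3l, Dtx3l and Parp9, and Parp9 and Parp14 were within the sum of their SDs in WT, whereas Parp14 and Parp12, and Parp12 and Parp11, were not. In KO, Parp10 and Dtx3l, Parp9 and Parp14, and Parp11 and Parp12 were within it, whereas Dtx3l and Parp9, and Parp14 and Parp11, were not. Parp12 took 1.37% to 4.64% of the summed level per kilobase of the 6 genes in KO libraries and 6.04% to 6.98% in WT libraries. It stood above Parp11 in every WT library and below it in every KO library, though in KO replicate 2 they were nearly even (4.31 for Parp12 and 4.38 CPM per kilobase for Parp11). Parp1 was at 22.1 ± 5.33 CPM per kilobase in KO and 27.5 ± 2.58 in WT, and Parp2 at 19.4 ± 1.43 in KO and 17.9 ± 3.09 in WT. In KO the Parp1 mean lay between those of Dtx3l and Parp10, and the Parp2 mean was within the SD of Dtx3l.

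The summed level of the 6 interferon-linked genes over that of Parp1 and Parp2 was taken within each library, per kilobase of transcript, so that it does not depend on the scaling between libraries. The ratio was 1.44, 2.29 and 1.93 in KO replicates 1 to 3, and 4.22, 4.17 and 2.69 in WT replicates 1 to 3. Every KO library was below every WT library, with KO replicate 2 and WT replicate 3 the nearest pair. On the log2 scale the mean was 0.89 ± 0.34 in KO and 1.85 ± 0.37 in WT (SD, n = 3 each), a difference of -0.96, and no test was run because the members were chosen with results known. Leaving out 1 library in turn gave differences of -0.78 to -1.18.

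**Figure D3:**
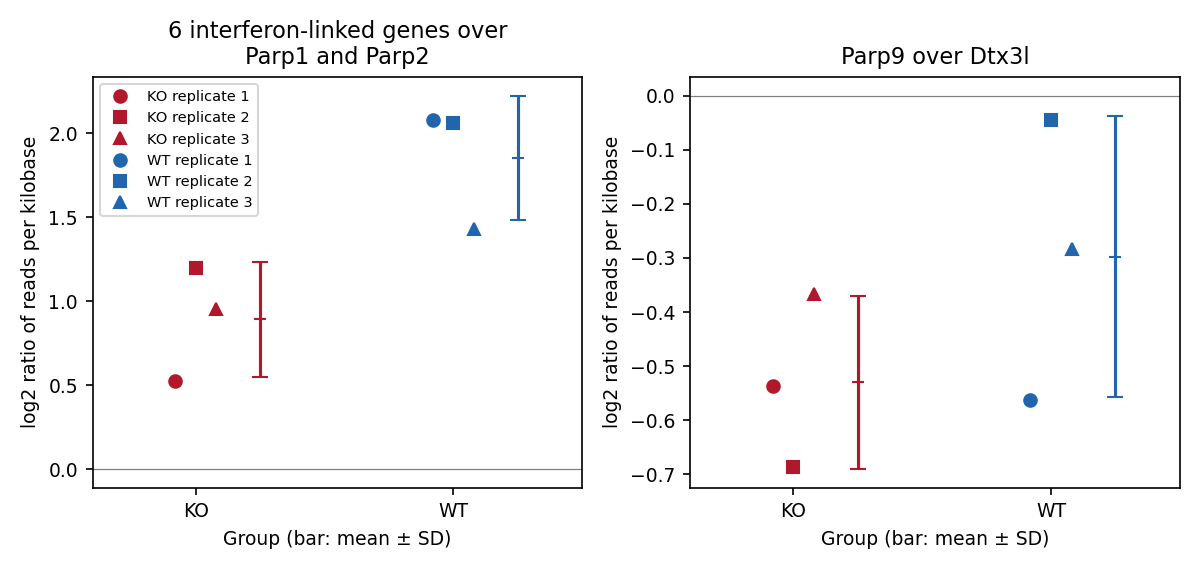
Log2 ratio of reads per kilobase in each library, KO left of WT, with mean ± SD (n = 3 each), for the 6 interferon-linked genes over Parp1 and Parp2 (left panel) and for Parp9 over Dtx3l (right panel). The first ratio is 0.52 to 1.20 in KO and 1.43 to 2.08 in WT without overlap, while the second overlaps between the groups.

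Among the KO libraries, replicate 2 had the highest value of all 6 interferon-linked genes, and among the WT libraries replicate 3 had the lowest value of 5 of them. The same libraries held these places for Irf7, an interferon regulatory factor, with 84.5, 180 and 83.1 CPM in KO and 556, 441 and 353 CPM in WT. Macrophage and monocyte markers, led by Chil3 and Lyz2, took 0.259% to 0.281% of counts in KO, against 0.0373%, 0.0783% and 0.712% for WT replicates 1, 2 and 3. B cell, natural killer cell and neutrophil markers were at most 0.0474% of counts in any library and highest in WT replicate 3. Of 12 macrophage markers, Adgre1 and Siglecf were not among the gene symbols, and Marco did not pass the filter on low counts. Of 7 neutrophil markers, Ly6g was not among the symbols and Mmp8 did not pass the filter. The filter was also not passed by 2 of 7 B cell markers (Ms4a1 and Pax5) and 5 of 7 natural killer cell markers (Ncr1 and Klrb1c among them). Plasmacytoid dendritic cell markers took 0.0167% to 0.0239% in KO and 0.0528% to 0.0643% in WT, led by Bst2, which is also an interferon response gene, and Irf8. In WT replicate 1, Bst2 held 3321 reads, against 761 for Irf8 and 42 for Siglech, and the share without Bst2 was not taken. Of 6 tested genes of that list, 3 were lower in KO without overlap (Bst2, Tcf4 and Irf8), against 11.5% of all tested genes. Siglech, Ccr9 and Cox6a2 overlapped between the groups. The part of any of these cell types in the result was not tested. When the lung epithelial share entered the fit as a covariate, no member was called. The log2 fold changes were then -1.40 for Parp9 (edgeR adjusted p = 0.112), -0.94 for Dtx3l (edgeR adjusted p = 0.176) and -0.75 for Parp14 (edgeR adjusted p = 0.279), and 8 genes were called in the whole table. In sorted bulk cells, fewer cells with a transcript and less of it per cell cannot be told apart.

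**Figure D4:**
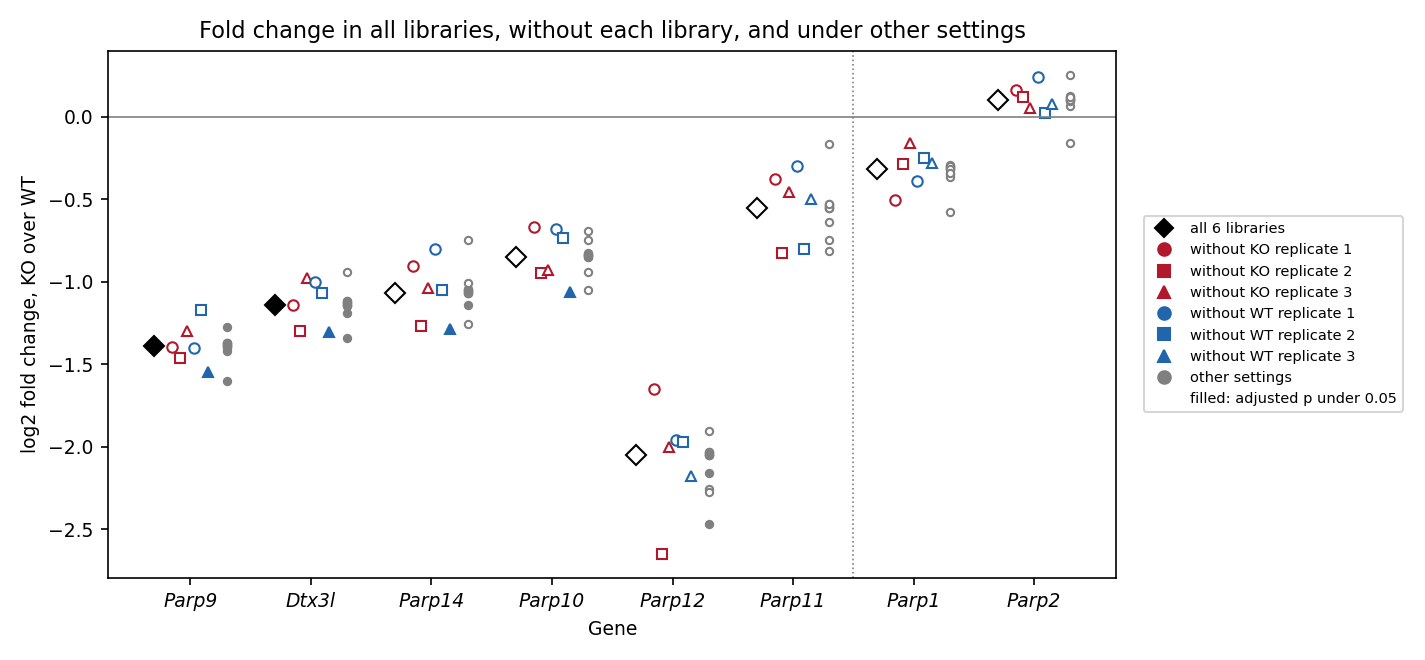
Log2 fold change, KO over WT, of each gene with all 6 libraries (diamonds), without each library in turn (red for a KO library left out, blue for a WT library) and under the other 12 settings (grey), filled where the adjusted p was under 0.05. All points of the 6 interferon-linked genes are negative, and without 1 library Parp9 and Dtx3l are called only when WT replicate 3 is the one left out.

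The rest of the ADP-ribosylation machinery had no gene called by edgeR. Of all tested genes 1.74% were called, so lists this small would mostly hold none. An unadjusted p under 0.05 was found for 15.9% of all tested genes. Of 9 other PARP genes, 5 had negative and 4 positive log2 fold changes (median -0.20), against 7 negative and 2 positive when scaled to pan-T cell genes, and none was called by edgeR. At an unadjusted p under 0.05 there was 1, Tnks, which encodes the telomere-associated tankyrase, at 16.5 ± 2.78 CPM in KO, against 26.8 ± 1.71 CPM in WT (log2 fold change -0.70, SE 0.23, edgeR adjusted p = 0.192). Zc3hav1, which encodes the antiviral zinc finger protein ZAP and is itself interferon-induced in many cells, was the most abundant by CPM, and was named after its values were seen. It overlapped between the groups at 312 ± 30.0 CPM in KO, against 360 ± 84.7 CPM in WT. Of 6 tested genes for removal of ADP-ribose, none was called by edgeR, 1 had an unadjusted p under 0.05, and the smallest p was that of Adprhl2, which encodes the hydrolase ARH3 (log2 fold change 0.50, SE 0.18, edgeR adjusted p = 0.229). Adprhl1 and Macrod2 of that list were not among the tested genes. None of 14 repair partners of PARP1 and PARP2 was called by edgeR. An unadjusted p under 0.05 was found for 2 of them, near the 15.9% of all tested genes. Their median was -0.22, with 10 negative and 4 positive, against -0.46 with 12 negative and 2 positive when scaled to pan-T cell genes. The smallest p belonged to Aptx, which encodes the end-processing enzyme aprataxin, at 17.0 ± 1.86 CPM in KO, against 28.5 ± 3.48 CPM in WT (log2 fold change -0.76, SE 0.22, edgeR adjusted p = 0.142). The other was Lig1, a DNA ligase gene named after its values were seen, at 96.6 ± 17.3 CPM in KO, against 61.5 ± 12.7 CPM in WT (log2 fold change 0.66, SE 0.21, edgeR adjusted p = 0.159).

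Among the 4 other Deltex genes, 1 had a negative and 3 a positive log2 fold change. None of the 4 was called by edgeR, and 3 had an unadjusted p under 0.05, against 15.9% of all tested genes. Dtx4 had 21.9, 15.5 and 20.3 CPM in KO and 8.02, 9.58 and 6.81 CPM in WT, with the KO libraries above all WT libraries (log2 fold change 1.27, SE 0.30, edgeR adjusted p = 0.0863). Dtx1, a Notch-linked member named after its values were seen, had 21.6, 32.7 and 14.5 CPM in KO and 55.2, 91.7 and 42.9 CPM in WT (log2 fold change -1.44, SE 0.37, edgeR adjusted p = 0.101), and was called without WT replicate 3 (-1.65, edgeR adjusted p = 0.0395). DESeq2 called both Dtx1 (adjusted p = 0.00385) and Dtx4 (adjusted p = 0.0102), and limma-voom with sample quality weights called Dtx1 (adjusted p = 0.0484). The signs for Dtx1 and Dtx4 were the same when scaled to pan-T cell genes (-1.62 and 1.01).

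Factors that carry the interferon signal to DNA fell, while no receptor or kinase gene was called. Of 12 tested genes, 3 were called lower and none higher (0.983% and 0.755% of all tested genes), Stat2 and Irf7 among them. Their KO libraries lay below their WT libraries, as for 11.5% of all tested genes. Stat2 was at 84.6 ± 9.03 CPM in KO, against 206 ± 31.8 CPM in WT (log2 fold change -1.28, SE 0.16, edgeR adjusted p = 0.0131), a fold close in size to those of Parp9 and Dtx3l. Irf7 was at 116 ± 55.4 CPM in KO, against 450 ± 102 CPM in WT (log2 fold change -1.96, SE 0.34, edgeR adjusted p = 0.0449). KO libraries lay above WT libraries for 5 of the 12, as for 10.4% of all tested genes. These were the receptor genes Ifnar1, Ifnar2 and Ifngr1 and the kinase genes Tyk2 and Jak1, named after their values were seen. Ifnar1, Ifnar2 and Tyk2 had log2 fold changes of 0.37, 0.45 and 0.45 (edgeR adjusted p of 0.174 to 0.230), and 0.12, 0.20 and 0.22 when scaled to pan-T cell genes. Ifngr1 and Jak1 had 0.24 and 0.18, and 0.005 and -0.09 with that scaling. Stat2 and Irf7 remained called when either KO replicate 2 or WT replicate 3 was left out, and neither was called when any other library was (edgeR adjusted p of 0.0520 to 0.191). With the lung epithelial covariate neither was called (edgeR adjusted p = 0.0818 for Stat2 and 0.154 for Irf7), and without a filter on low counts Irf7 was not (edgeR adjusted p = 0.0574).

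Of 22 listed interferon response genes, 13 were called lower and none higher, against 0.983% and 0.755% of all tested genes. All 22 had lower values in every KO library than in any WT library, against 11.5% of all tested genes. The median log2 fold change was -2.29, against -1.10 for the 6 interferon-linked members. The smallest p values were those of Rsad2, Bst2 and Oas3, with log2 fold changes of -2.68, -2.18 and -2.39. Parp12 (-2.05) was the member nearest to the median of the response genes. This list was chosen with results of these libraries known.

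The genes whose pattern over the 6 libraries was nearest to the mean pattern of the 6 interferon-linked members were Sp110, Trafd1, Gadd45g, Helz2 and Zfp324. Nearness was the root mean square difference of log2 CPM centred on each gene's mean, and was 0.07 for Sp110, 0.09 for Trafd1, 0.13 for Gadd45g, 0.13 for Helz2 and 0.14 for Zfp324, against a median of 0.72 over 9771 genes. Sp110, which encodes a nuclear body protein, had 62.7, 97.5 and 68.6 CPM in KO and 187, 168 and 138 CPM in WT. Among the members, which each enter that mean unless they belong to DNA repair, Parp14 was nearest to it (0.13), followed by Dtx3l (0.21), Parp10 (0.24) and Parp9 (0.29), while Parp11 (0.56) and Parp12 (0.66) were about as far from it as Parp1 (0.59) and Parp2 (0.70). Nearest to Parp1 were Dph5, N4bp2l2 and Stk4 (0.09 each), and nearest to Parp2 were Rbm18, Nsfl1c and Cnot3 (0.04 to 0.05). Low distances to Parp2 are common, the median over all genes being 0.34.

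Within 250 kb of the cluster, 6 other genes were tested and none was called by edgeR, or had an unadjusted p under 0.05. Of all tested genes, 1.74% were called and 15.9% had such an unadjusted p, so no call among 6 genes is the usual outcome. Kpna1, which encodes an importin and begins 40.3 kb from the start of Parp9, was at 31.6 ± 1.34 CPM in KO, against 39.1 ± 8.48 CPM in WT (log2 fold change -0.30, 95% interval -0.78 to 0.18, edgeR adjusted p = 0.548). Hspbap1, on the side of Parp14, was at 38.2 ± 7.71 CPM in KO, against 27.4 ± 2.82 CPM in WT (log2 fold change 0.48, 95% interval -0.02 to 0.98, edgeR adjusted p = 0.33). The 95% intervals of 5 of the 6 neighbours did not reach the fold change of Dtx3l, and that of Gm6815, a pseudogene near 1 CPM, did (low end -1.61). The interval of Ccdc58 (low end -1.068) also just reached the smaller fold change of Parp14 (-1.0675). The window was chosen after its values were seen.

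**Figure D5:**
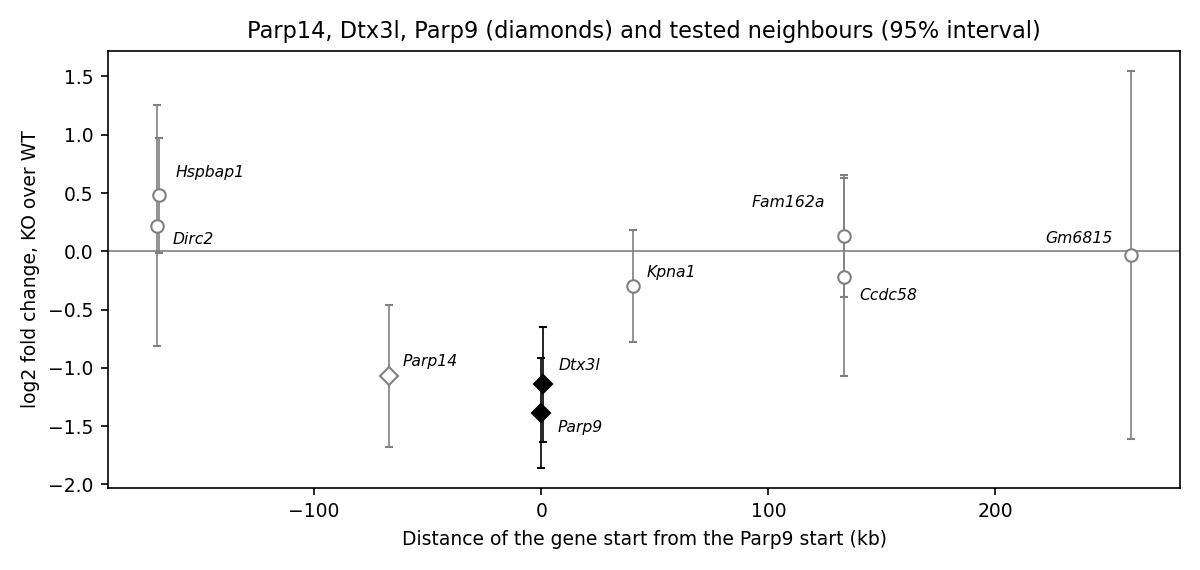
Log2 fold change, KO over WT, with 95% interval, against the distance of each gene's start from the Parp9 start in kilobases, for Parp14, Dtx3l and Parp9 (diamonds) and the 6 tested neighbours (circles), filled where called. The 3 clustered genes lie between -1.07 and -1.39, and the neighbours between -0.30 and 0.48.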

How the data were processed

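RNA was sequenced from sorted Treg cells, 3 KO and 3 WT libraries. The values deposited by the authors are raw read counts for 31682 RefSeq transcript rows, each with its length, per the file headers. Tools named in the submitters' processing notes are TopHat2 2.2.1, Bowtie2 2.2.6 and bcl2fastq, with build mm10. Which program counted reads, and its strand setting, is not given in the sources used here. Isoform rows repeat shared reads, so 1 row per symbol, that of most reads, was used. No row lacked a symbol and 0 per-sample columns were left unused.

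Genes passing filterByExpr (minimum count 10, minimum total 15) were compared with edgeR 4.0.16's quasi-likelihood test (robust, TMM factors, R 4.3.3), with Benjamini-Hochberg adjustment over all tested genes. SEs are the log2 fold change over the square root of F. The test was run on simulated data with known changes first. CPM per kilobase divides by transcript length. Distances used log2(CPM + 0.5), among genes with a mean of at least 5 CPM. Intervals on counts cover counting error only, and 3 counts equal 0.163 to 2.08 CPM. Alternatives used DESeq2 1.42.0, limma 3.58.1 and the settings named in the closing section. Named genes are the members, Crlf2, Foxp3, up to 3 called genes per list (or that of smallest p), the nearest patterns and the 2 most abundant markers per list. Members and lists were chosen with earlier results of these data known, and the chromosome 16 neighbours after the data were seen. Some listed results are not reported here.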

Additional observations from a re-analysis of the deposited data

How the results depend on the processing

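The direction of all 6 interferon-linked members was negative under all 18 alternatives, and the number called lower, 2 with all libraries, ran from 0 to 4 when 1 library was left out. It was 1 without robust estimation (Dtx3l lost), 5 with DESeq2, 4 with limma-voom and sample quality weights, and 0 when the lung epithelial share was a covariate (4 at an unadjusted p under 0.05). Parp1 and Parp2 were called in none. Genes called in the whole table, 221 with all libraries, numbered 863 with DESeq2, 8 with the covariate, 123 with the replicate block and 4 to 518 without 1 library. Other listed genes called, 16 in all, numbered 28 with DESeq2, 26 with limma-voom and sample quality weights, 0 with the covariate and 0 to 22 without 1 library. Scaled to pan-T cell genes, 137 genes were lower and 26 higher in KO, against 125 and 96 with TMM. Signs turned for Parp2 with that scaling (-0.16) and for Foxp3 without WT replicate 3 (-0.0667, against 0.469 without WT replicate 1). The differences in the interferon-linked to DNA repair ratio (-0.78 to -1.18) and the Parp9 to Dtx3l ratio (-0.11 to -0.37) moved by less than the spread between replicates. For the changes above, the cause was not tested.

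What replicate numbers share is not stated in the labels. Deviations of same-numbered KO and WT libraries correlated across genes at 0.09, -0.15 and -0.04 for numbers 1 to 3, so the numbers gave no sign of pairing. With the replicate block, Parp9 (edgeR adjusted p = 0.0249) and Dtx3l (edgeR adjusted p = 0.0289) were called as without it, and Dtx1 was called (-1.47, edgeR adjusted p = 0.0278), which it was not without the block. Depth limits Parp11 most, at 13 reads in WT replicate 2.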
